A study of Mus musculus with 3 samples.

Results

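The 5 genes described here, of 36638 genes or unnamed transcripts on the arrays, lie beside Mettl21c on mouse chromosome 1 and were read for local effects of a LacZ allele at that locus. They are Tpp2 on one side of Mettl21c and Tex30, Poglut2 (named Kdelc1 in older annotation), Bivm and Ercc5 on the other. They were found by matching the accession of each array probe, without its version, to RefSeq genes (assembly GRCm38.p6), which gave 7 of the 55681 non-control probes: 2 each for Poglut2 and Bivm and 1 each for the other 3 genes. The samples were soleus muscle (SOL in the labels) of male C57BL/6 mice aged 8 weeks on regular chow. Mice of genotype Mettl21cLacZ/LacZ (KO) were compared with wildtype mice (WT), with 3 biological replicates of each. Each of 3 two-colour arrays held 1 KO sample in Cy5 and 1 WT sample in Cy3, and the dyes were never exchanged, so a probe's preference for one dye and the genotype cannot be told apart. The labels do not describe how the LacZ allele was built.

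A reporter cassette placed in one gene can alter the transcription of its neighbours, through its own promoter or by disturbing shared regulatory DNA, and neighbouring genes are therefore read beside the targeted gene. The flanking genes do unrelated work. Tpp2 encodes tripeptidyl peptidase II, a very large cytosolic serine protease that removes tripeptides from the ends of peptides released by the proteasome. Poglut2 encodes a glucosyltransferase of the endoplasmic reticulum that adds glucose to EGF repeats of secreted and membrane proteins. Ercc5 encodes XPG, the endonuclease that cuts on the 3′ side of a DNA lesion in nucleotide excision repair. Bivm is named for an immunoglobulin-like motif in its protein, and Tex30 for its expression in testis.

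A pair of promoter stretches is shown, because Tpp2 and Bivm were the flanking genes with measurable signal and because Bivm starts back to back with Poglut2. Both come from RefSeq promoters of build GRCm38.p6, in which all 5 genes had an entry. The first is the 250 bases before the start of Tpp2, chr1:43933744-43933993, plus strand. The second is the 183 bases between the start of Poglut2, read on the minus strand, and the first of 3 listed starts of Bivm, read on the plus strand, chr1:44118774-44118956, printed on the plus strand. Capitals mark the letters CCAAT, searched on both strands (ATTGG on the printed strand), as the CCAAT box binds the factor NF-Y.
Tpp2: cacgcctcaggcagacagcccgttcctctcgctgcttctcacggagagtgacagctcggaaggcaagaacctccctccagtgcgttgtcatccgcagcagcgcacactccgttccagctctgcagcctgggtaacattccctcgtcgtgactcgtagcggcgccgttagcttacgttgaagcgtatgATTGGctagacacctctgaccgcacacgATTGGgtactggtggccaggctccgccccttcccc
Poglut2_Bivm: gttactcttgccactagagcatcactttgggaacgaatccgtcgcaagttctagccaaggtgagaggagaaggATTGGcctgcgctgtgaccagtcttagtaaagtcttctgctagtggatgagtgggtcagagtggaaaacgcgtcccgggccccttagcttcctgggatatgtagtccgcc

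The Tpp2 stretch held 2 CCAAT matches and the shared Poglut2 and Bivm stretch held 1. Of 32851 RefSeq promoter windows, 33.8% held at least 1 CCAAT match in the 250 bases before the start. The letters GGGCGG, a GC box, were found on either strand 1 time before Tpp2 and 0 times between Poglut2 and Bivm, and 32.7% of windows held them. The letters TATAAA were in neither stretch, and 12.4% of windows held them. The shares are for windows of 250 bases, and the Poglut2 and Bivm stretch is shorter, at 183 bases, so they are not a like comparison for it. These matches describe the sequence and say nothing of factor binding.

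The share of non-control spots that the scanner called well above background was 22.5% to 22.9% for KO and 20.4% to 23.6% for WT, and 0 spots were saturated. Of the slow muscle markers 7 of 8 were well above background on all arrays in at least 1 channel, and so were 8 of 8 fast muscle markers. With 3 arrays, precision is limited throughout. After background correction with an offset of 50 and loess within each array, 7418 genes or unnamed transcripts were tested in limma, with a Benjamini-Hochberg adjusted p of 0.05 as the threshold. The targeted transcript was low in the samples labelled KO. Mettl21c had processed signals of 200.4, 32.3 and 45.4 in KO, against 7527, 3677 and 4486 in WT on arrays 1 to 3. In KO it was well above background on array 1 only, and the groups did not overlap. On the offset scale its log2 ratio of KO over WT was -2.45 (SD 0.48, n = 3 arrays, limma adjusted p = 0.0170). From the processed signals the mean was -6.23 (limma adjusted p = 0.0680), without array 3 it was -2.44 on the offset scale (limma adjusted p = 0.0549) and, with no filter on dim probes, -2.45 (limma adjusted p = 0.172), each short of the threshold. Mettl21c passed the filter on dim probes through the WT channel alone, and its ratio ran from -6.78 to -2.21 over the alternatives, so -2.45 is its value on the offset scale and not an exact size of the difference.

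No flanking gene passed the test. Of the 5, only Tpp2 and Bivm had a probe well above background on all 3 arrays in at least 1 channel and could be tested, and 0 of these 2 passed in limma, where 3 of all 7418 genes (0.0404%) did. The mean log2 ratio of KO over WT was 0.30 for Tpp2 and 0.15 for Bivm. At an unadjusted p under 0.05, 1 of the 2 was counted (Tpp2, with a positive ratio), beside 13.4% of all genes tested in either direction and 5.90% on the higher side. Tex30, Poglut2 and Ercc5 were at or near background, so whether their levels differ between the genotypes was not measurable on these arrays.

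Tpp2, the next gene to Mettl21c on its side, was readily measured. Its processed signals were 971.7, 994.5 and 1095 in KO soleus, against 906.3, 767.1 and 1149 in WT soleus on arrays 1 to 3. The 3 KO values lay within the range of the WT values, so the groups overlapped, with KO above WT on arrays 1 and 2 and below it on array 3. The mean processed signal was 1020 ± 65.6 in KO and 940.8 ± 193.2 in WT (SD, n = 3 each).

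After loess, Tpp2 had a log2 ratio (KO over WT) of 0.19 on array 1, 0.27 on array 2 and 0.45 on array 3. They were positive on every array, as were those of 17.5% of all genes tested. The mean log2 ratio was 0.30 (SD 0.13, n = 3 arrays), with a limma 95% confidence interval of 0.12 to 0.49. On the offset scale the mean is 1.23-fold higher in KO, and the interval reaches from 1.09-fold to 1.40-fold. That interval does not cover the choice of processing. With loess kept, the mean was 0.43 with an offset of 16 (limma adjusted p = 0.150). It was 0.49 with no background subtraction (limma adjusted p = 0.160) and 0.60 with plain background subtraction (limma adjusted p = 0.416). As reported, the limma adjusted p was 0.178 over all genes, and from 0.120 to 1.00 over the alternatives. In the distribution of all 7418 ratios Tpp2 stood at the percentile 97.6.

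The array on which Tpp2 had its highest ratio after loess was the one on which the scanner's own processed signals put it slightly below WT. On array 3 the spot had a median intensity of 87.5 in KO over a local background of 16, and of 100.5 in WT over a local background of 29. The same spot gave a log2 ratio of 0.45 after loess and of -0.07 from the processed signals, which Feature Extraction had dye-normalised. With the processed signals on all arrays the Tpp2 log2 ratios were 0.10, 0.37 and -0.07, with a mean of 0.14 (SD 0.22, n = 3 arrays, limma adjusted p = 0.714). With median centring in place of loess the mean turned to -0.24 (limma adjusted p = 0.143), and the median over all tested genes was then -0.45. Relative to that median Tpp2 stood at 0.21.

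**Figure D1:**
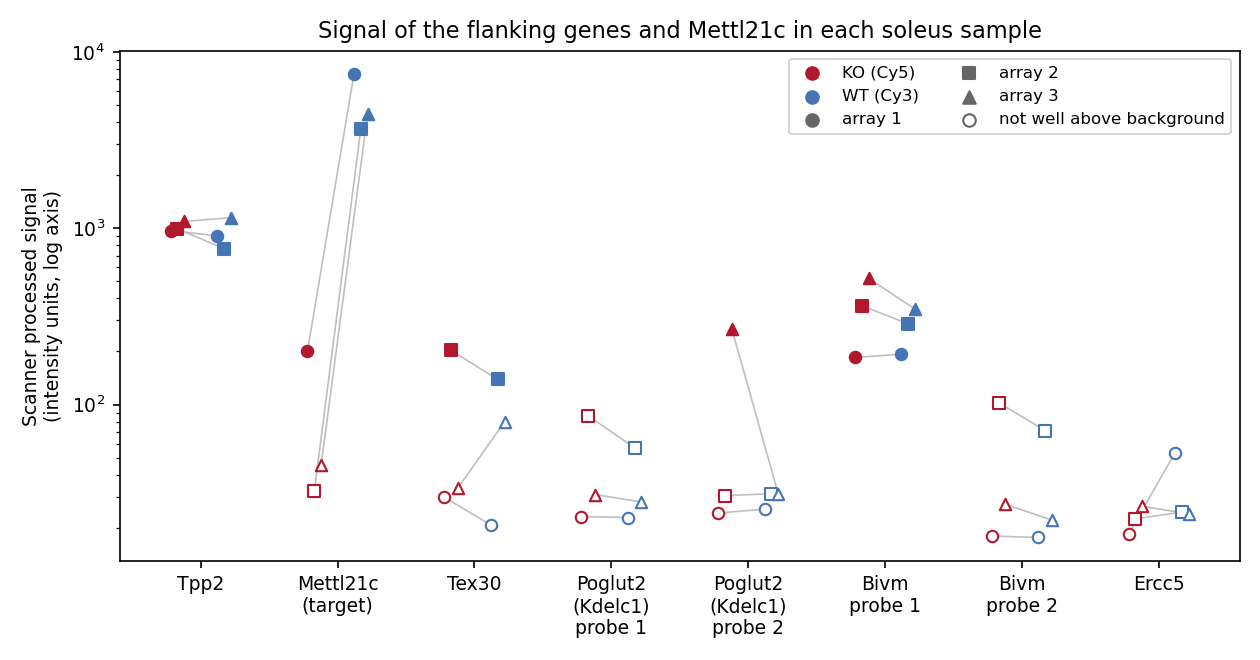
Scanner processed signal (log axis) of each flanking gene probe and of Mettl21c, with KO samples in red left of WT samples in blue, a grey line joining the samples of 1 array and open symbols for signals not well above background. Tpp2 and the first Bivm probe were above background in all 6 samples with overlapping groups, while Mettl21c separated KO from WT and the other probes were mostly open.

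Bivm, on the far side of Mettl21c, was dimmer. The tested probe had processed signals of 185.0, 363.6 and 520.5 in KO soleus, against 193.0, 287.3 and 347.9 in WT soleus. The groups overlapped, with KO below WT on array 1 and above it on arrays 2 and 3. The mean was 356.4 ± 167.9 in KO and 276.0 ± 78.1 in WT (SD, n = 3 each). In both groups the sample on array 1 was the lowest and that on array 3 the highest.

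The Bivm log2 ratios after loess were 0.06, 0.10 and 0.28, all positive. Their mean was 0.15 (SD 0.12, n = 3 arrays, limma 95% confidence interval -0.03 to 0.33, adjusted p = 0.449). On the offset scale the upper end of the interval is 1.26-fold higher in KO. The spot medians were 25, 30.5 and 46.5 in KO and 44.5, 58 and 61.5 in WT over local backgrounds of 17 or 18 in KO and of 37, 39.5 and 32 in WT. At such signals the offset of 50 shrinks a ratio, and with an offset of 16 the mean was 0.27 (limma adjusted p = 0.378). From the processed signals it was 0.29 (SD 0.32, n = 3 arrays, limma adjusted p = 0.553). Without array 3 the mean on the offset scale was 0.08 (limma adjusted p = 0.687). In 1 of the 17 alternatives Bivm passed the threshold: with arrays centred on the tested probes without loess, an alternative added after seeing the data, it stood at 0.40 (limma adjusted p = 0.0159), a setting that called 1012 genes higher and 1644 lower. Tex30, Poglut2 (its brighter probe) and Ercc5, all too dim to test, stood higher in that setting, at 0.46, 0.44 and 0.43.

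The other Bivm probe failed the scanner's background test in all 6 samples. Its processed signals were 17.9, 102.6 and 27.1 in KO, against 17.6, 71.1 and 22.1 in WT, and its log2 ratios after loess were 0.05, 0.03 and -0.02. It therefore adds no measured size to that of the brighter probe. Both probes carry the same transcript accession.

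Poglut2, whose start faces that of Bivm across the 183 bases printed above, had 2 probes. The first was not well above background in any sample, with processed signals of 23.1, 86.4 and 30.8 in KO, against 22.8, 56.8 and 28.0 in WT. Its log2 ratios after loess were -0.05, 0.04 and 0.03. The Poglut2 and Bivm transcripts were thus not read equally well here: Bivm had 1 probe above background in all samples, and Poglut2 had none.

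The second Poglut2 probe was well above background in 1 of 6 samples, the KO sample of array 3. Its processed signals were 24.2, 30.4 and 270.0 in KO, against 25.5, 31.2 and 31.1 in WT. The high value stands alone among the 6. At that spot the median intensity in KO was 29.5, below the local background of 36, while the local background of that channel was 17 at the same probe on the other arrays and had a median of 17 over array 3. The log2 ratio on array 3 was 3.12 from the processed signals and -0.15 after normexp and loess, values that differ in both the background step and the dye normalisation. The first Poglut2 probe gave log2 ratios of 0.14 from the processed signals and 0.03 after loess on the same array.

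Tex30 was well above background on array 2 alone, in both channels. Its processed signals were 29.8, 202.9 and 33.6 in KO, against 20.7, 138.9 and 79.7 in WT. KO was above WT on arrays 1 and 2 and below it on array 3, and the groups overlapped. On the array with measurable signal the log2 ratio was 0.20 after loess and 0.55 from the processed signals. Over all arrays the ratios after loess were 0.11, 0.20 and -0.04.

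Ercc5 was not well above background in any sample. Its processed signals were 18.4, 22.4 and 26.4 in KO, against 53.4, 24.5 and 24.0 in WT, and the groups overlapped. The lowest processed signal of any spot called well above background on array 1 was 56.8 in the WT channel, above the Ercc5 signal of 53.4 there. The log2 ratios after loess were -0.0012, -0.015 and 0.04.

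**Figure D2:**
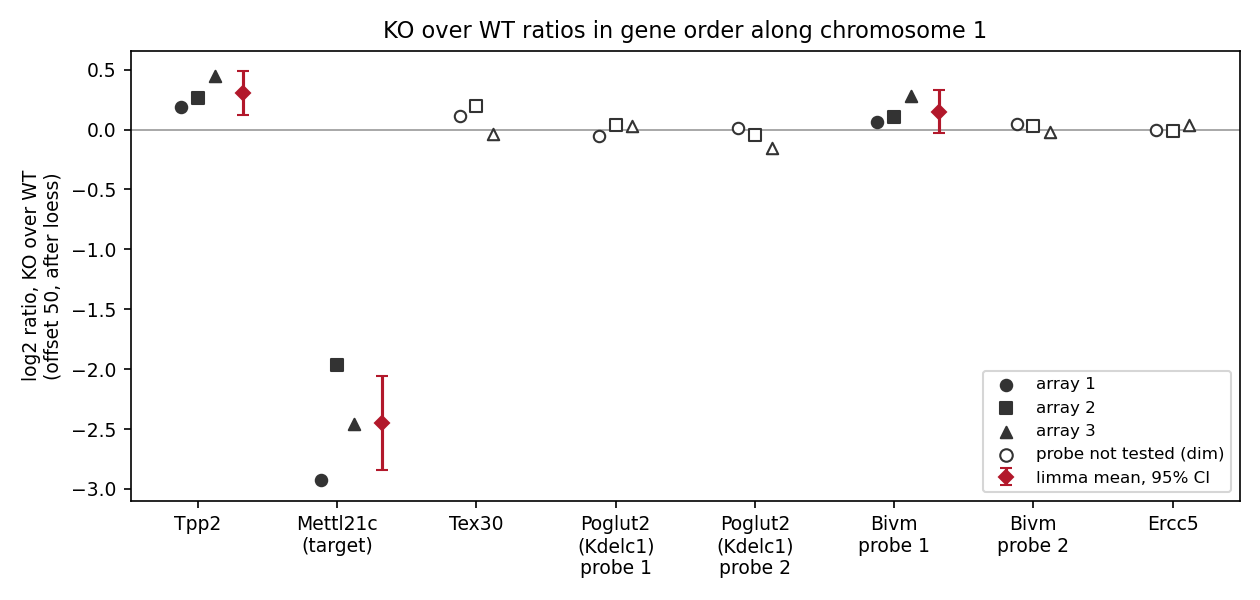
Log2 ratio of KO over WT for each probe on each array, in the order of the genes along chromosome 1 and not to scale in distance, with filled symbols and the limma mean and 95% confidence interval for tested probes and open symbols for probes too dim to test. Tpp2 averaged 0.30 and Bivm 0.15, against -2.45 for Mettl21c between them.

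The next genes outward were read in the same way. Of the 15 annotated genes on either side of Mettl21c in the RefSeq order, leaving out the 5 flanking genes, 25 remained, of which 6 had a matching probe and 2 were tested. Fhl2, a LIM domain protein of muscle and other tissues, had log2 ratios of -0.25, -0.0049 and -0.57, with a mean of -0.28 (SD 0.29, n = 3 arrays, limma adjusted p = 0.347), and was the 1 of these 2 with an unadjusted p under 0.05, beside 13.4% of all genes tested. Its processed signals were 697.4, 1089 and 927.1 in KO, against 889.3, 1028 and 1594 in WT, and overlapped. Nck2, an adaptor of receptor tyrosine kinase signalling, had log2 ratios of 0.20, 0.21 and -0.46, with a mean of -0.02 (SD 0.38, n = 3 arrays, limma adjusted p = 0.970). Beside Mettl21c, Tpp2 and Bivm had positive means and Fhl2, farther out on the side of Tpp2, a negative one. Nck2, also on that side, had ratios of both signs and a mean near the median of all tested genes (-0.0028). None of them passed the threshold, so no pattern by distance is read from these signs.

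Mettl21e, a relative of Mettl21c beyond Ercc5, was not well above background in any sample, with processed signals of 23.2, 26.0 and 34.8 in KO, against 22.0, 24.7 and 30.4 in WT. The same held for Gulp1 and for both probes of Uxs1. Ecrg4 was well above background on arrays 1 and 2 in both channels. Its log2 ratios there were -0.37 and -0.03 after loess, and -1.05 and -0.58 from the processed signals. Gm8251, which lies between Mettl21c and Tex30, had no matching probe and was not analysed here.

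**Figure D3:**
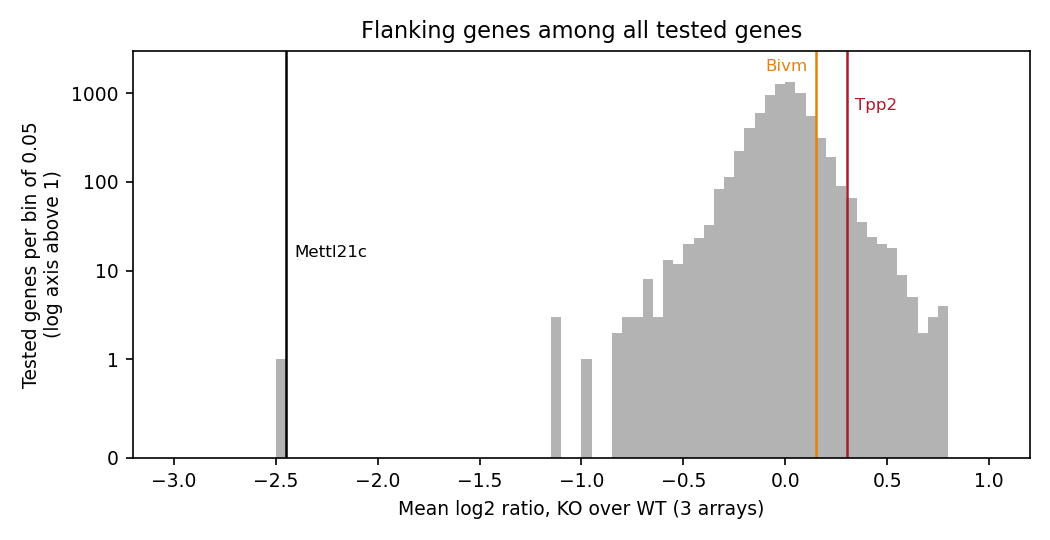
Number of tested genes per bin of mean log2 ratio, KO over WT, over 3 arrays, with lines at the means of Tpp2, Bivm and Mettl21c. Tpp2 at 0.30 (percentile 97.6) and Bivm at 0.15 (percentile 89.6) lay on the higher side of the 7418 ratios, and Mettl21c at -2.45 was the lowest.

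Genes of the same enzyme class as Tpp2 or Poglut2, or of the same pathway as Ercc5, were listed for comparison. Of 22 cytosolic and processing peptidases, the enzymes that act on peptides as Tpp2 does, 14 were tested, of which 3 had a positive and 11 a negative mean and 0 passed in either direction in limma. At an unadjusted p under 0.05, 5 were counted on the lower side and 0 on the higher side. Of all genes, 7.54% were counted on the lower side and 5.90% on the higher side. Their median log2 ratio was -0.11, against -0.0028 over all genes tested. Dnpep, an aspartyl aminopeptidase, stood at -0.35 (SD 0.26), Apeh, which releases acetylated amino acids from peptides, at -0.31 (SD 0.06), and Blmh, bleomycin hydrolase, at -0.30 (SD 0.13). The limma adjusted p of these 3 ran from 0.137 to 0.233. Tpp2 had a ratio of the opposite sign to most of this list.

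Of 40 nucleotide excision repair genes, the pathway of Ercc5, 16 were tested, 6 with a positive and 10 with a negative mean, and 0 passed in limma. At an unadjusted p under 0.05, 2 were counted on the lower side and 0 on the higher side, while 7.54% of all genes were counted on the lower side and 5.90% on the higher side. Their median log2 ratio was -0.03, against -0.0028 over all genes tested. Rfc1, the large subunit of the clamp loader, stood at -0.25 (SD 0.04), Rad23b, a partner of the damage sensor Xpc, at -0.21 (SD 0.04) and Ddb1, of the ultraviolet damage sensor, at -0.13 (SD 0.06).

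Of 12 glycosyltransferases of EGF and thrombospondin repeats, the group of Poglut2, 5 were tested, 2 with a positive and 3 with a negative mean. None of them passed in limma, and 0 had an unadjusted p under 0.05, beside 0.0404% and 13.4% of all genes tested. With 5 genes tested, a count of 0 is not read as a trait of the group. Their median log2 ratio was -0.0017. Pofut1, which adds fucose to EGF repeats of Notch, stood at -0.18 (SD 0.15), Rfng, which extends that fucose, at -0.12 (SD 0.29) and Gxylt1, a xylosyltransferase, at 0.04 (SD 0.03).

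Markers of other cell types were read beside these values. Of the macrophage markers tested, 6 of 6 had a negative mean, with a median log2 ratio of -0.24, and of the red blood cell markers 3 of 3 had a positive one (median 0.21). Of the slow muscle markers tested, 5 of 6 were positive (median 0.22), and of the fast muscle markers 4 of 6 were negative (median -0.19). The other slow marker, Atp2a2, had the largest absolute ratio of its set, at -1.14 (SD 0.41, n = 3 arrays, limma adjusted p = 0.0803). The fast markers Tnnt3 and Myh2 were positive after loess, at 0.21 and 0.15, and stood at -0.06 and 0.16 from the processed signals. From the processed signals Myl3 and Tnnt1 stood at 0.06 and -0.04, against 0.49 and 0.40 after loess. The slow markers Tnnc1, Myl2 and Tpm3 stayed positive. Processed signals were also summed over all probes of each marker list, tested or not. The sums ran from 6791 to 10379 in KO and from 7581 to 15222 in WT for macrophages. For red blood cells they ran from 13781 to 32567 in KO and from 11138 to 18358 in WT. Of the adipocyte markers tested, 3 of 4 had a positive mean after loess (median 0.12), with limma adjusted p from 0.386 to 0.917. The sums over this list ran from 7376 to 8179 in KO and from 4673 to 6993 in WT. Of the 7 marker sets only this one had sums that did not overlap. The share of all genes without overlap was not computed, so this is not read as a difference. Of the endothelial markers 2 of 3 had a positive mean, with sums from 2185 to 3717 in KO and from 2066 to 4105 in WT, and the 1 fibroblast marker tested of 4 had a positive one, with sums over the list from 973.6 to 17684 in KO and from 901.2 to 23691 in WT. None of the markers passed in limma, and their part in the flanking gene values was not tested. In whole muscle, fewer cells of a type and less RNA per cell cannot be told apart.

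**Figure D4:**
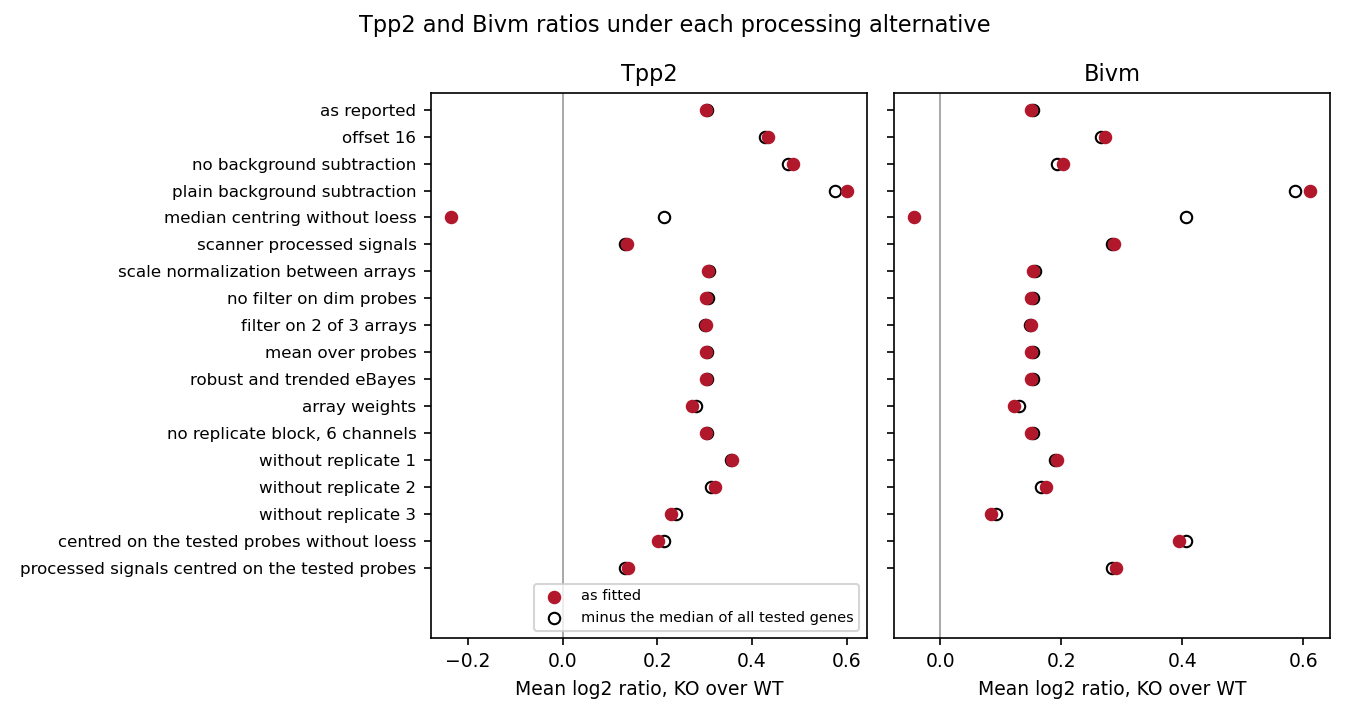
Mean log2 ratio of KO over WT for Tpp2 and Bivm under each processing alternative, as fitted (red) and after subtracting the median of all tested genes in the same setting (open). The fitted values of both turned negative with median centring in place of loess, and the values relative to the median stayed positive, from 0.13 to 0.58 for Tpp2 and from 0.09 to 0.59 for Bivm.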

How the data were processed

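Transcript levels were measured on 2-colour Agilent arrays. Each deposited scanner file holds, per the file headers, the intensity of each spot and of its local background in both channels, quality flags given as other values, a log10 ratio and a processed signal that Feature Extraction background-subtracted and dye-normalised. The headers name Feature Extraction 12.0.3.1 and the submitters' processing notes version 11.5. The deposited series matrix held the scanner's log10 ratio, red (KO) over green (WT). The 2 differed by at most 5.0e-10 on arrays 1 and 2 and by at most 0.0050 on array 3. Its scale and direction are taken from that match. Its column medians were 0 on all 3 arrays, where 28540, 29526 and 32272 of 59305 values were exactly 0, so they say nothing of centring. All 3 arrays lay on 1 slide.

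Median spot intensities were corrected over all spots with normexp and an offset of 50, followed by within-array loess that gave control and outlier-flagged spots weight 0 (limma 3.58.1, R 4.3.3). The 536, 572 and 1002 flagged spots on arrays 1 to 3 were left out, none of them of a flanking gene. Tests covered the 8385 of 55681 probes that had a value on every array and passed the scanner's background flag on every array in the KO or the WT channel, taking the brightest per gene. limma with eBayes then tested each mean ratio against 0, two-sided. SD values are between arrays, and nothing beyond the label of biological replicates says how animals were assigned to arrays. The script was tested on simulated data with the same noise for all genes. Of 100 genes given a true log2 change of 1 in either direction, 57 were called. Their median fitted size was 0.58 over all 100.

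The flanking genes and the gene lists were chosen with earlier results of these data known. Named beside them were Mettl21c and, of each list and of the wider neighbourhood, the 3 tested genes of largest absolute ratio. Some genes outside this rule were named with their values seen, namely the neighbours with a probe too dim to test and single muscle markers.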

Additional observations from a re-analysis of the deposited data

How the results depend on the processing

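The ratios of Tpp2, Bivm and Mettl21c, the list medians and the counts of calls were recomputed under 15 alternatives and 2 centrings added after seeing the data, and the mean ratios of the untested flanking genes under 12 of these. Single genes of the lists and the markers were not followed through all of these. Tpp2 stayed short of the threshold in all 17, with a positive ratio in 16, up to 0.60 with plain background subtraction. It turned to -0.24 with median centring without loess. Bivm turned to -0.043 in that setting and reached 0.61 with plain background subtraction. It passed at 0.40 with centring on the tested probes without loess, where the count of flanking genes called was 1 against 0 otherwise. The cause of these changes was not tested. With 1 array left out Tpp2 ran from 0.23 to 0.36 and Bivm from 0.08 to 0.19. The pairing of samples within an array is part of the reported fit. With no replicate block, as 6 separate channels, Tpp2 stayed at 0.30 and Bivm at 0.15, each with a limma adjusted p of 1.00.

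Mettl21c kept its direction in all 17, some of which could not move its ratio, as given above. It missed the threshold at -6.78 with plain background subtraction (spots at the floor given weight 0 in loess) and at -6.23 with processed signals, with or without centring. At -2.45 it also missed the threshold with no filter on dim probes, a filter on 2 of 3 arrays or 6 separate channels. With 1 array left out it ran from -2.69 to -2.21. Genes called higher numbered 3 with an offset of 16, 42 with robust, trended moderation, 45 with array weights and 1012 with centring on the tested probes without loess, and from 0 to 5 with 1 array left out. Genes called lower numbered 22 with an offset of 16, 5 with no background subtraction, 4914 with median centring, 45 with robust moderation, 18 with array weights, 1644 with centring on the tested probes, and 1 with scale normalisation or the mean over probes. They numbered 0 with plain subtraction, processed signals with or without centring, no filter, a filter on 2 of 3 arrays and 6 channels, and from 0 to 11 with 1 array left out, the 0 being without array 3, where Mettl21c also missed the threshold. In those settings with 0 calls in limma, from 236 (6 channels) to 2468 (no filter, 36218 genes) had an unadjusted p under 0.05. With median centring 0.809% of tested genes had a positive ratio, against 49.1% as reported. Low signal over background limits Tex30, Poglut2 and Ercc5: their mean ratios ran from -0.06 to 0.59, from -0.16 to 0.44 and from -0.51 to 0.43 over 12 alternatives. For Poglut2 this followed the first probe, except with the mean over probes. The second probe had a mean of 1.00 from the processed signals (SD 1.83, n = 3 arrays), outside that range, through its value on array 3.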
